A study of Mus musculus with 15 samples.

Results

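Genes for structural proteins of the extracellular matrix were followed in cultured neural stem cells from the subventricular zone of adult mice as the cells left the undifferentiated state. The genes were chosen by name: every collagen chain (Col), every laminin chain (Lama, Lamb, Lamc) and 19 further matrix proteins. Of these 19, 18 were matched on the array, and Spp1 was not analysed here. The set held 64 of the 12393 genes with a probe set assigned to a single symbol: 36 collagens, 10 laminins and the 18 others. Where a gene had several probe sets, the one with the largest mean signal was read. Of the 64 genes, 34 had a mean above 0.51 on the log2 scale, the 40th percentile of all probe sets, and were tested. The other 30 lay under that level.

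The matrix outside the cell is built from large secreted proteins. Collagens form fibrils and networks, laminins assemble from an alpha, a beta and a gamma chain into the sheets of basement membranes, and nidogens, agrin and perlecan tie these sheets together. Lecticans such as versican, brevican and neurocan are proteoglycans that bind hyaluronan and make up much of the matrix of brain tissue. In the subventricular zone, stem cells touch laminin-rich extensions of the vascular basement membrane known as fractones, and tenascin C is a known matrix protein of this niche.

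RNA from 15 samples, 1 array each, was measured on an Affymetrix mouse array. The cells came from female C57Bl6/J mice aged 6 months and were grown as neurospheres, free-floating clusters, to passages 5 to 7. Of the 3 groups, 5 samples were undifferentiated cells kept with the growth factors bFGF and EGF, 5 were taken 12 h and 5 were taken 24 h after differentiation was induced without growth factors, in 5% serum on poly-D-lysine. Growth factor loss, serum and the coated surface came at once and cannot be told apart. No label names separate cultures or animals for the replicates, so every p-value here rests on a spread between arrays that may be technical. Replicates were numbered in accession order. Because the samples were bulk RNA, fewer cells of a type and less RNA per cell cannot be told apart.

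Facts about the arrays bear on all values. For 13 samples the array code in the title differed from the code of the array file, and for 8 of these the file code would place the sample in another group. Groups here follow the titles. The title codes have 3 endings, called suffixes A, B and C here, each of which held arrays of every group. The ratio of 3′ to 5′ signal for actin, a sign of RNA quality, was 1.63 to 2.22 in undifferentiated cells, 2.21 to 2.59 at 12 h and 2.23 to 3.21 at 24 h, so it moved with the groups, and the counts of calls with it as a covariate are given beside the results. At 12 h, replicates 3 and 4 were the closest pair of arrays of any group, with an SD of their difference of 0.15 on the log2 scale, and the next closest pair stood at 0.277. Replicates 3 and 4 were also the only 12 h arrays of suffix B. All 14 neural stem cell markers on the array, Nes and Sox2 among them, passed the level filter. None of the 10 endothelial and none of the 10 microglial markers passed it.

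At 12 h against undifferentiated cells, 4 of the 34 tested matrix genes were higher and 1 was lower by limma with Benjamini-Hochberg adjustment over all 7909 genes tested, at an adjusted p under 0.05. Osteoglycin (Ogn), Islr, Sparc and neurocan (Ncan) rose and the laminin alpha chain Lama1 fell. Among all tested genes 7.86% were called, 3.3% higher and 4.56% lower, and among the matrix genes 14.7% were called. The median difference of the matrix genes was 0.32 on the log2 scale, beside 0.00445 for all genes. At an unadjusted p under 0.05 there were 12 of the 34, beside 26.3% of all genes. Groups did not overlap for 3 matrix genes above and 1 below the undifferentiated arrays, where 3.41% and 4.74% of all genes were so placed. Without 12 h replicate 1 a second gene was lower (Fbln1), and likewise without 12 h replicate 3 or 4 (Fbln2). In these 3 settings 5.84%, 12.7% and 10.7% of all genes were called.

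At 24 h against undifferentiated cells, 8 of the 34 matrix genes were higher and 11 lower, and 15 did not pass the test. The rises were those of Ogn, Islr, Ncan, versican (Vcan), the collagens Col9a1, Col9a3 and Col20a1, and the laminin chain Lama2. The falls were those of Fbln2, tenascin C (Tnc), Fbln1, Nid2, the laminin chains Lama1, Lama5, Lamb1 and Lamc1, and the collagens Col5a3, Col18a1 and Col26a1. Among all tested genes 32.1% were called, 12.7% higher and 19.4% lower, and among the matrix genes 55.9% were called. The median size of a difference, whatever its sign, was 0.67 on the log2 scale for the matrix genes and 0.32 for all genes. Groups did not overlap for 7 matrix genes above and 9 below, where 9.04% and 16% of all genes were so placed. At an unadjusted p under 0.05 there were 22 of the 34, beside 42.9% of all genes. All 19 called differences kept their sign within each of the 3 suffixes, as did the 5 at 12 h. Quantile normalization and median centring moved the calls over all genes at 24 h from 1003 higher and 1533 lower to 1582 and 1316 or to 1431 and 1110, while the matrix genes went to 7 higher and 11 lower or to 9 and 11. Of the tested genes, 4 had a group mean under the filter level and passed through another group (Ogn and Col20a1 in undifferentiated cells, Col18a1 at 24 h, Lama1 at both times), so shares over the tested genes are not shares over the whole set.

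With the suffix as a block in the fit, limma called 6 matrix genes higher and 3 lower at 12 h (7.99% and 10.7% of all genes), with Col20a1, Col4a6, Col26a1 and Fbln2 added. At 24 h it called 8 and 12 (18.1% and 23.7%), with Lama4 added, and between the times 0 and 6 (0.506% and 2.05%), which were Col5a1, Col5a3, Fbln2, Fn1, Lama5 and Nid2. Runs of consecutive title codes, each with arrays of several groups or a single array, served as a further block. The calls rested on the title groups. With groups taken from the file codes, limma called 0 of all 7909 genes in each comparison, and so 0 matrix genes. At an unadjusted p under 0.05 there were then 1, 0 and 0 matrix genes at 12 h, at 24 h and between the times, beside 1.02%, 1.49% and 0.266% of all genes. With the actin ratio as a covariate, 2 genes were called at 12 h (Ogn and Sparc, both higher) 0 at 24 h and 0 between the times, while the calls over all genes went to 0.746%, 0.164% and 0.0126%. At 24 h 8 matrix genes then had an unadjusted p under 0.05, beside 24.2% of all genes. The 24 h differences in that fit were -2.65 for Fbln2, -2.27 for Tnc, 2.24 for Ogn and -1.49 for Lamb1, and that of Col5a3 was -0.29.

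**Figure D1:**
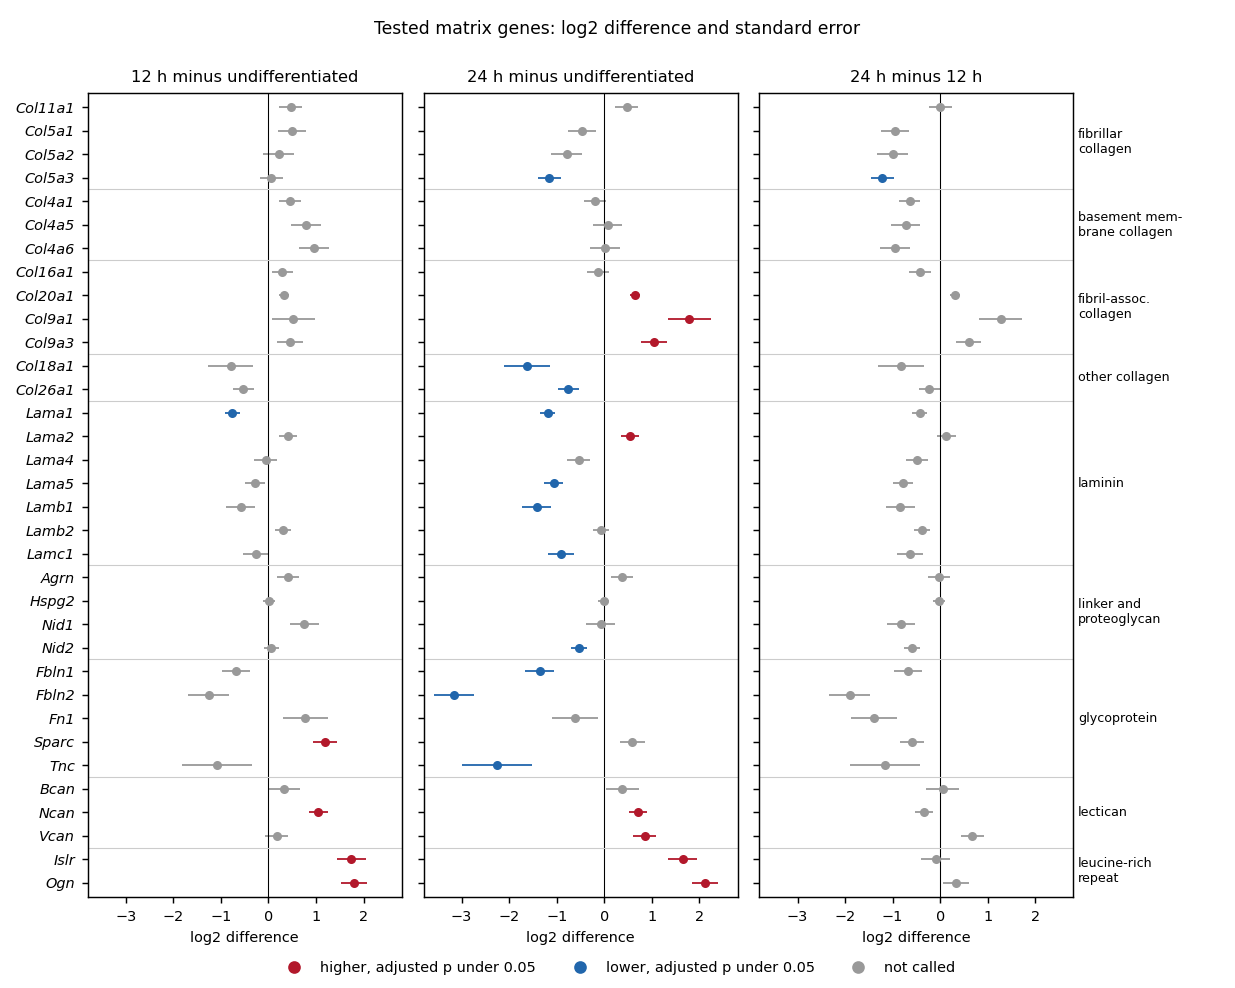
Log2 differences (x axis) of the 34 tested matrix genes by role (y axis) in the 3 comparisons, with bars for the standard error of the fit; red and blue mark genes called higher and lower at an adjusted p under 0.05, grey the others. Fbln2 lies farthest below 0 at 24 h with -3.16, and Ogn farthest above with 2.12.

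Promoters of 3 genes that fell and 3 that rose at 24 h are shown so that their composition can be read side by side. Each window holds 250 bases before a transcript start listed for the gene, assembly GRCm38.p6, read 5′ to 3′ on the gene's strand. The windows are Fbln2 chr6:91212514-91212763 (plus strand), Lamb1 chr12:31265043-31265292 (plus strand), Lama5 chr2:180225860-180226109 (minus strand), Ogn chr13:49607765-49608014 (plus strand), Islr chr9:58158555-58158804 (minus strand) and Col9a1 chr1:24177360-24177609 (plus strand). Those of Fbln2 and Islr lie wholly inside the RefSeq span of the gene, and those of Lamb1, Lama5 and Col9a1 run into it. Capitals mark GGGCGG, the core of the SP1 motif, or its reverse complement CCGCCC. Fbln2, Lamb1 and Lama5 fell, and Ogn, Islr and Col9a1 rose. The genes shown follow no stated rule, and the motif splits them more cleanly than it does the whole set. Among the windows not shown, Fbln1 fell and lacks the motif, and Ncan and Vcan rose and hold it.
Fbln2: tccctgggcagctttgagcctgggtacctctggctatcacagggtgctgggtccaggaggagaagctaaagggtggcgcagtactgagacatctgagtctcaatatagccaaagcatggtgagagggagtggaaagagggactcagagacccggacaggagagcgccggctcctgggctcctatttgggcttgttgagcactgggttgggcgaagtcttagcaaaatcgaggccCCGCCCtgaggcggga
Lamb1: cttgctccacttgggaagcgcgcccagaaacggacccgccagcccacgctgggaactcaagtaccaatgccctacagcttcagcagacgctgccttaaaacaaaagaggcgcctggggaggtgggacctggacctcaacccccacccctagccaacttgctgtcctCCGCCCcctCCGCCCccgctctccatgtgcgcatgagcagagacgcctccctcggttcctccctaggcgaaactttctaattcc
Lama5: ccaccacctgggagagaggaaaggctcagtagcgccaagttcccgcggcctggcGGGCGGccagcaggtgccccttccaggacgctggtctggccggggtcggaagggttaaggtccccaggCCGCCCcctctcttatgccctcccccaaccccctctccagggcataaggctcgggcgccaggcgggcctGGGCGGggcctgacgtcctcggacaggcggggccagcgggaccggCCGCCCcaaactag
Ogn: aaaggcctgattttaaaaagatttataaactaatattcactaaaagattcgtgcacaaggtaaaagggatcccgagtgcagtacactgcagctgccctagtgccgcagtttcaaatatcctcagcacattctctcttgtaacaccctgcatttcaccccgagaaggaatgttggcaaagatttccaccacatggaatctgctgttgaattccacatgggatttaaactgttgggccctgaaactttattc
Islr: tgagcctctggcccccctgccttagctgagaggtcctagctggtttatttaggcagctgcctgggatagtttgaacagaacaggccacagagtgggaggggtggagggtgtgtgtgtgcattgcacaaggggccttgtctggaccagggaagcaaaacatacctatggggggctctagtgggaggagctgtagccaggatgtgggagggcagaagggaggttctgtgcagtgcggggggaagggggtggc
Col9a1: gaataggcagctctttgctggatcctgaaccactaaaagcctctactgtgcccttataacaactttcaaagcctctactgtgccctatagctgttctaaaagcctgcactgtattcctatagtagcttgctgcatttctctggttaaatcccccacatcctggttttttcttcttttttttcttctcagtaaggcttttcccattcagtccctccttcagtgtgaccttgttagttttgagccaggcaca

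RefSeq windows were matched for 47 of the 64 matrix genes, among them 7 of the genes that rose and 7 of those that fell at 24 h. GGGCGG stood on either strand in 6 of the 7 windows of genes that fell (all but Fbln1), in 2 of the 7 of genes that rose (Ncan and Vcan), in 27 of all 47 and in 33.0% of 27025 mouse promoters of that length. The median GC content was 62.0% in the windows of genes that fell, 49.2% in those of genes that rose and 52.0% over all promoters, and the motif is itself all G and C. It was 63.4% in the 12 windows of tested genes not called at 24 h and 58.8% in the 21 of genes not tested. High GC content was thus not particular to the genes that fell, and uncalled genes such as Agrn (12 matches) and Hspg2 (5 matches) also held GGGCGG. The AP-1 motif TGANTCA stood in 0 of these 14 windows and in 6.85% of all promoters. The TEAD motif GGAATG stood in 2 windows of genes that rose and 0 of genes that fell (12.6% of all), and the SMAD motif CAGACA in 2 and 1 (17.1% of all). The E-box CANNTG stood in 5 and 6 (66.0% of all) and the CArG box of SRF in 1 and 0 (1.41% of all). Both strands were searched, and matches of different motifs could overlap. These are matches of letters, not sites.

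Of the matrix genes tested, Ogn and Islr gave the largest rises at 12 h, and Ogn gave the largest at 24 h. Osteoglycin is a small leucine-rich proteoglycan. On the log2 scale Ogn read 0.43, 0.22, 0.35, -0.37 and 0.04 in the 5 undifferentiated arrays, 1.001, 2.62, 2.14, 2.18 and 1.69 at 12 h and 2.57, 1.54, 2.79, 2.20 and 2.16 at 24 h. Every array at either time lay above every undifferentiated array. Ogn rose by 1.79 ± 0.28 on the log2 scale (SE, adjusted p = 0.00330) at 12 h and by 2.12 ± 0.28 on the log2 scale (SE, adjusted p = 0.000158) at 24 h in the limma fit, 3.46-fold and 4.35-fold. By suffix (A, B and C in turn, also for the genes that follow) the difference at 24 h was 2.25, 2.17 and 2.14. The undifferentiated mean was 0.13 ± 0.32 (SD, n = 5), under the filter level, so the low side of this change lay in the range of dim probe sets. A second Ogn probe set, with a mean of 0.62, gave smaller differences in the same direction, 0.97 at 12 h and 1.05 at 24 h.

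Islr, a secreted protein with leucine-rich repeats and an immunoglobulin domain, read 1.47, 0.35, 1.38, 0.27 and 0.37 in undifferentiated cells. It read 1.88, 2.36, 2.92, 2.94 and 2.45 at 12 h and 2.11, 2.30, 3.27, 2.54 and 1.86 at 24 h. Undifferentiated replicates 1 and 3 were well above the other 3, yet no array of the later groups reached down to them. The rises were 1.74 ± 0.30 on the log2 scale (SE, adjusted p = 0.00504) at 12 h and 1.65 ± 0.30 on the log2 scale (SE, adjusted p = 0.00114) at 24 h by limma, with values of 1.20, 1.96 and 1.83 by suffix at 24 h. The small leucine-rich proteoglycans decorin (Dcn) and biglycan (Bgn), abundant in fibrous tissue, stayed under the filter level, with arrays from -0.67 to -0.44 and from -0.39 to 0.32.

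Among the lecticans, the hyaluronan-binding proteoglycans of brain matrix, Ncan and Vcan rose and Bcan did not pass the test. Ncan read 7.53, 7.998, 8.10, 7.41 and 7.76 in undifferentiated cells, 8.95, 9.09, 8.45, 8.53 and 9.04 at 12 h and 8.53, 8.12, 8.41, 8.41 and 8.86 at 24 h. The undifferentiated arrays lay below all others. Ncan was higher by 1.05 ± 0.19 on the log2 scale (SE, adjusted p = 0.00677) at 12 h and by 0.70 ± 0.19 on the log2 scale (SE, adjusted p = 0.0110) at 24 h. By suffix the 12 h difference was 1.26, 0.73 and 1.27. Under quantile normalization the 24 h call was lost (adjusted p = 0.136).

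Vcan ranged over 4.51 to 5.52 in undifferentiated cells, 4.41 to 5.75 at 12 h and 5.53 to 6.26 at 24 h, and the 24 h arrays lay above the undifferentiated ones. Its difference at 24 h was 0.85 ± 0.24 (SE; adjusted p = 0.0140). The other Vcan probe sets above the filter level did not follow, with 24 h differences of -0.10 and -0.23, and the call was lost when the probe sets were averaged (adjusted p = 0.727). Brevican (Bcan) had differences of 0.33 ± 0.34 (SE; adjusted p = 0.587) at 12 h and 0.38 ± 0.34 (SE; adjusted p = 0.424) at 24 h. The link protein Hapln1, which joins lecticans to hyaluronan, stayed between -0.33 and -0.11, under the filter level.

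**Figure D2:**
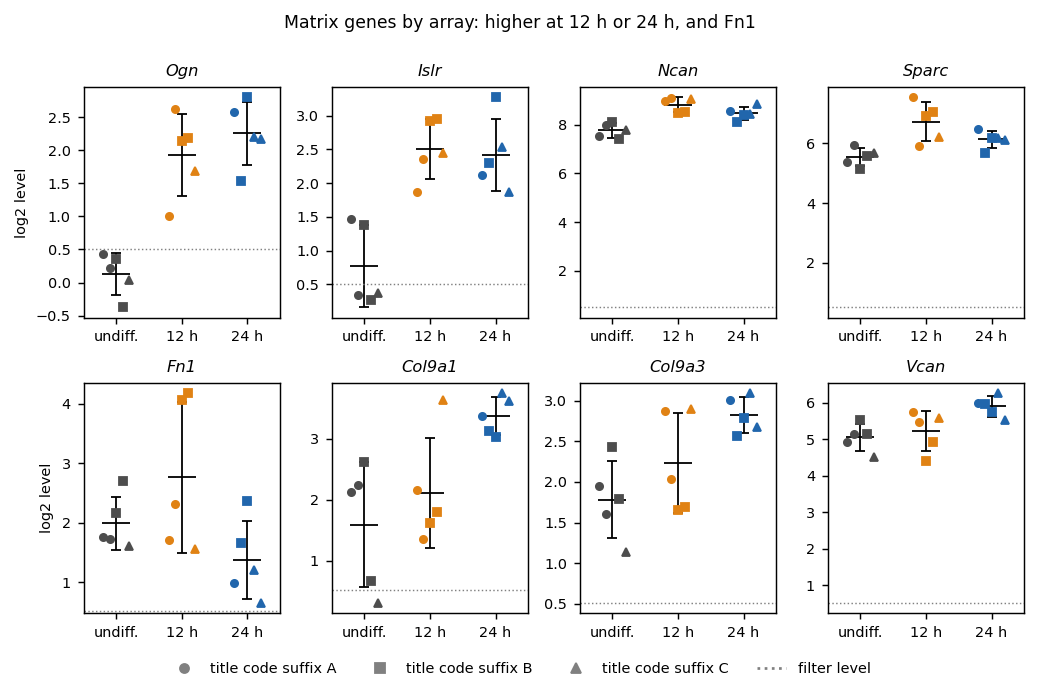
Log2 values of 8 matrix genes with higher values at 12 h or 24 h, 1 point per array with a marker for the title suffix, bars for the group mean ± SD (n = 5) and a dotted line at the filter level of 0.51. For Ogn, Islr and Ncan the undifferentiated arrays lie below all later arrays, while Fn1 stands high in 2 arrays at 12 h.

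Of the collagen IX chains, Col9a1 and Col9a3 rose at 24 h. This collagen sits on the surface of fibrils and is built of 3 different chains. Col9a1 read 2.13, 2.24, 2.62, 0.67 and 0.31 in undifferentiated cells, 2.16, 1.35, 1.61, 1.80 and 3.64 at 12 h and 3.37, 3.13, 3.03, 3.75 and 3.62 at 24 h. Its 24 h arrays lay close together and above all undifferentiated arrays, of which replicates 4 and 5 were the lowest. The rise at 24 h was 1.79 ± 0.45 on the log2 scale (SE, adjusted p = 0.00746), 3.45-fold, with 1.18, 1.44 and 3.38 by suffix. The 12 h arrays were wide apart, and the 12 h difference was 0.52 ± 0.45 (SE; adjusted p = 0.495).

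Col9a3 read 1.95, 1.60, 2.43, 1.78 and 1.14 in undifferentiated cells, 2.87, 2.03, 1.65, 1.70 and 2.90 at 12 h and 3.01, 2.57, 2.78, 3.09 and 2.68 at 24 h, and again the 24 h arrays lay above the undifferentiated ones. The 24 h difference was 1.05 ± 0.27 (SE; adjusted p = 0.00829), or 1.24, 0.57 and 1.75 by suffix. Col9a2, the chain of the same trimer that lay under the filter level, had a 24 h difference of 0.36 (adjusted p = 0.0917 without the filter). Col20a1, another collagen of the fibril-associated kind, rose at 24 h by 0.64 ± 0.11 on the log2 scale (SE, adjusted p = 0.000687) from an undifferentiated mean of 0.22 ± 0.10 (SD, n = 5). Col16a1 had differences of 0.29 ± 0.23 (SE; adjusted p = 0.435) at 12 h and -0.13 ± 0.23 (SE; adjusted p = 0.688) at 24 h.

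Fibulin 2 gave the largest difference of any tested matrix gene. Fibulins are calcium-binding glycoproteins that link elastic fibres and basement membranes. Fbln2 read 4.16, 4.17, 4.82, 3.45 and 2.88 in undifferentiated cells, 2.59, 2.02, 3.61, 3.67 and 1.30 at 12 h and 0.62, 0.90, 1.39, 0.51 and 0.27 at 24 h. The 24 h arrays lay below every undifferentiated array, and at 12 h replicates 3 and 4 lay within the undifferentiated range. Fbln2 fell by 3.16 ± 0.43 on the log2 scale (SE, adjusted p = 0.000190) at 24 h, 8.94-fold, with -3.55, -2.99 and -2.49 by suffix. At 12 h the difference was -1.26 ± 0.43 (SE; adjusted p = 0.0796), and between 12 h and 24 h it was -1.90 ± 0.43 (SE; adjusted p = 0.0586). Both were called lower with the suffix block (adjusted p = 0.0101 and 0.0143).

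Fbln1, a close relative, read 2.10, 2.69, 2.75, 3.39 and 2.18 in undifferentiated cells, 2.93, 1.93, 1.80, 1.73 and 1.28 at 12 h and 1.30, 1.46, 1.81, 1.05 and 0.69 at 24 h. At 12 h replicate 1 stood apart from the other 4 arrays, and the 24 h arrays lay below all undifferentiated arrays. The fall at 24 h was 1.36 ± 0.30 on the log2 scale (SE, adjusted p = 0.00345), with -1.09, -1.43 and -1.31 by suffix. Fbln5 stayed between -0.47 and 0.33, under the filter level.

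Tenascin C, a large glycoprotein that modulates cell adhesion, read 4.21, 4.45, 4.74, 6.78 and 6.46 in undifferentiated cells, 1.23, 4.54, 5.84, 5.83 and 3.74 at 12 h and 3.31, 3.48, 3.59, 2.87 and 2.11 at 24 h. Undifferentiated replicates 4 and 5 were the highest and 12 h replicate 1 the lowest of all 15 arrays. The 24 h arrays lay below all undifferentiated arrays. Tnc fell by 2.26 ± 0.74 on the log2 scale (SE, adjusted p = 0.0277) at 24 h, with -1.03, -2.23 and -3.97 by suffix, and its SE was the largest of the matrix genes called. Without undifferentiated replicate 4 or 5 the adjusted p was 0.0784 or 0.0690, and without 24 h replicate 4 or 5 it was 0.0551 or 0.0708.

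Sparc, a collagen-binding glycoprotein, read 5.37, 5.95, 5.15, 5.58 and 5.68 in undifferentiated cells, 7.54, 5.93, 6.92, 7.06 and 6.22 at 12 h and 6.47, 5.70, 6.19, 6.19 and 6.12 at 24 h. At 12 h replicate 2 lay just within the undifferentiated range and the other 4 above it. Sparc rose by 1.19 ± 0.26 on the log2 scale (SE, adjusted p = 0.0151) at 12 h, with 1.08, 1.63 and 0.53 by suffix. At 24 h the difference was 0.59 ± 0.26 (SE; adjusted p = 0.0909). Fibronectin (Fn1), which links integrins to collagen, was not called in the fit without a block. It read 1.75, 1.73, 2.16, 2.70 and 1.60, then 1.71, 2.32, 4.06, 4.18 and 1.56, then 0.99, 1.67, 2.36, 1.20 and 0.66. Replicates 3 and 4, the 12 h arrays of suffix B, alone stood high at 12 h. The 12 h difference was 0.78 ± 0.48 (SE; adjusted p = 0.321) with them and -0.13 (adjusted p = 0.821) without both. Between 12 h and 24 h it was -1.39 ± 0.48 (SE; adjusted p = 0.176), and Fn1 was called lower there with the suffix block (-1.36, adjusted p = 0.0235) and with code runs as a random block (-1.44, adjusted p = 0.0471).

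Laminin chains moved in both directions. Of 10 chains on the array 7 were tested, and at 24 h 4 were lower, 1 was higher and 2 did not pass the test. Lama1, a chain of laminin-111, read 1.13, 1.40, 1.22, 1.18 and 1.06 in undifferentiated cells, 0.62, 0.03, 0.80, 0.77 and -0.05 at 12 h and -0.02, 0.17, 0.10, -0.20 and -0.04 at 24 h. It was the one matrix gene called lower at 12 h, and neither later group overlapped the undifferentiated arrays. The falls were 0.76 ± 0.16 on the log2 scale (SE, adjusted p = 0.0132) at 12 h and 1.19 ± 0.16 on the log2 scale (SE, adjusted p = 0.000177) at 24 h, with -1.28, -1.06 and -1.18 by suffix at 24 h. Both later means lay under the filter level.

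Lamb1, the beta chain of several laminins, read 1.22, 1.85, 1.58, 2.36 and 3.10 in undifferentiated cells, 1.15, 1.19, 2.04, 1.92 and 0.87 at 12 h and 0.76, 0.32, 0.63, 0.74 and 0.53 at 24 h. The 24 h arrays lay below all arrays of both other groups. Lamb1 fell by 1.42 ± 0.30 on the log2 scale (SE, adjusted p = 0.00262) at 24 h, 2.68-fold, with -0.78, -1.49 and -2.46 by suffix. Its partner Lamc1, the gamma chain of most laminins, ranged over 2.99 to 4.01, 2.46 to 3.92 and 1.99 to 2.79, and fell by 0.91 ± 0.27 on the log2 scale (SE, adjusted p = 0.0187) at 24 h. The Lamc1 call was lost without undifferentiated replicate 4 (adjusted p = 0.0558) or 24 h replicate 5 (adjusted p = 0.0509).

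Lama5, the alpha chain of laminin-511, read 2.05, 2.34, 2.49, 2.69 and 2.17 in undifferentiated cells, 1.97, 1.80, 2.63, 2.46 and 1.43 at 12 h and 1.30, 1.24, 1.63, 1.13 and 1.11 at 24 h. The 24 h arrays lay below all undifferentiated arrays, and the 12 h arrays spread over both ranges. The fall at 24 h was 1.07 ± 0.21 on the log2 scale (SE, adjusted p = 0.00163), with -0.89, -1.16 and -1.05 by suffix. Lama2, the alpha chain of laminin-211, went the other way, with a 24 h difference of 0.54 ± 0.20 (SE; adjusted p = 0.0484), a call lost without any of 11 of the 15 arrays, all but 12 h replicates 1, 3 and 4 and 24 h replicate 2 (adjusted p up to 0.113). Lama4 had a 24 h difference of -0.54 ± 0.24 (SE; adjusted p = 0.0953) and Lamb2 one of -0.08 ± 0.17 (SE; adjusted p = 0.745), and neither passed the test. Lama4 was called lower at 24 h with the suffix block (adjusted p = 0.0151) and the block of code runs (0.0136). Lama3, Lamb3 and Lamc3 stayed under the filter level.

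**Figure D3:**
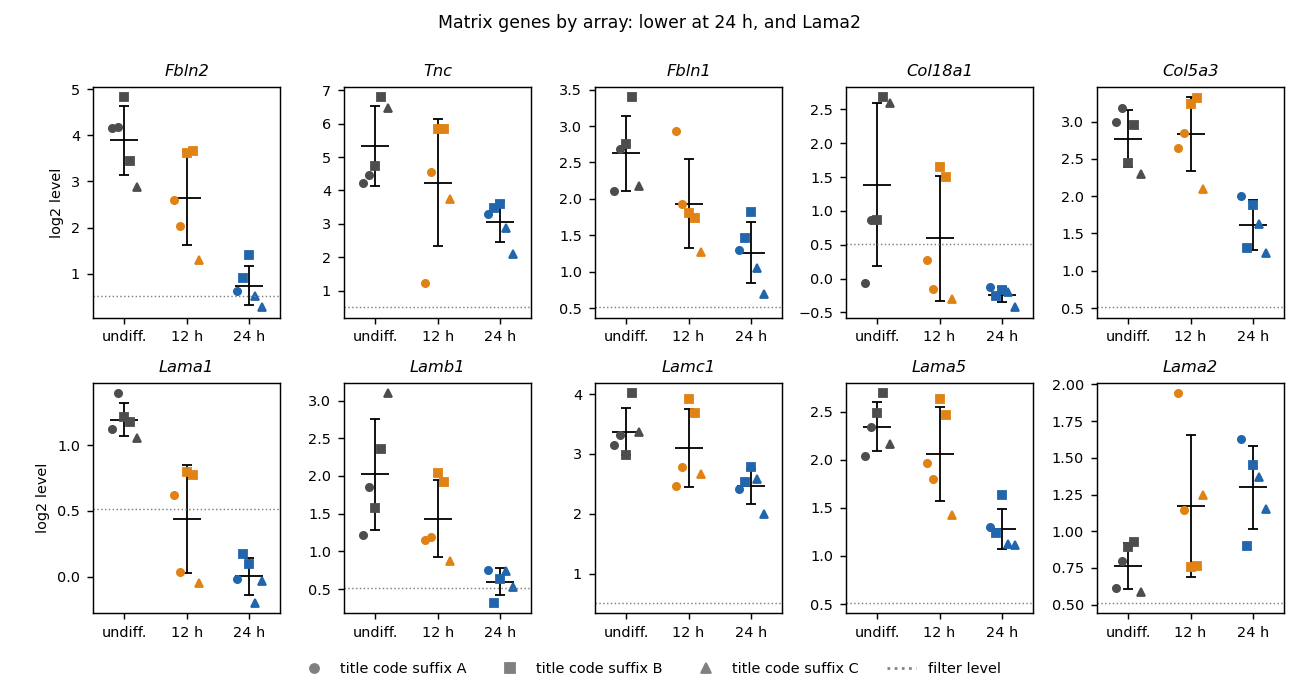
Log2 values of 10 glycoprotein, collagen and laminin genes, 9 of them lower at 24 h and Lama2 higher, 1 point per array with a marker for the title suffix, bars for the group mean ± SD (n = 5) and a dotted line at the filter level of 0.51. For Fbln2, Tnc, Fbln1, Col5a3, Lama1, Lamb1 and Lama5 all 24 h arrays lie below all undifferentiated arrays.

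Of the 4 genes that tie laminin to other matrix, Nid2 alone was called, at 24 h. The nidogens bridge laminin and collagen IV. Nid2 fell at 24 h by 0.53 ± 0.16 on the log2 scale (SE, adjusted p = 0.0193), and this call was lost without 24 h replicate 4 (adjusted p = 0.0516) or 24 h replicate 5 (adjusted p = 0.0511). Nid1 had differences of 0.75 ± 0.30 (SE; adjusted p = 0.129) at 12 h and -0.08 ± 0.30 (SE; adjusted p = 0.866) at 24 h. Agrin (Agrn), a heparan sulfate proteoglycan that also organises synapses, had 0.40 ± 0.23 (SE; adjusted p = 0.286) and 0.37 ± 0.23 (SE; adjusted p = 0.241). Perlecan (Hspg2) had 0.01 ± 0.12 (SE; adjusted p = 0.969) and -0.02 ± 0.12 (SE; adjusted p = 0.930).

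Of collagen IV, the network collagen of basement membranes, no chain was called in the fit without a block. Col4a1 had differences of 0.45 ± 0.22 (SE; adjusted p = 0.216) at 12 h and -0.19 ± 0.22 (SE; adjusted p = 0.537) at 24 h. Col4a5 had 0.79 ± 0.31 (SE; adjusted p = 0.120) and 0.07 ± 0.31 (SE; adjusted p = 0.885), and Col4a6 had 0.97 ± 0.32 (SE; adjusted p = 0.0674) and 0.01 ± 0.32 (SE; adjusted p = 0.981). Col4a6 was called higher at 12 h with the suffix block (adjusted p = 0.0303), the block of code runs (0.0372), quantile normalization (0.0367) and median centring (0.0435). Without 12 h replicate 5, Col4a1 and Col4a6 were called lower at 24 h than at 12 h (adjusted p = 0.0430 and 0.0481). The second probe sets of Col4a5 and Col4a6 had the opposite sign at 24 h. Col4a2, the partner of Col4a1 in the most common trimer, stayed between -0.14 and 0.53, and its mean, like those of Col4a3 and Col4a4, lay under the filter level.

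Of the fibrillar collagens, Col5a3 was lower at 24 h. Collagen V is a minor fibrillar collagen that takes part in starting fibrils. Col5a3 read 2.99, 3.18, 2.44, 2.95 and 2.30 in undifferentiated cells, 2.65, 2.85, 3.24, 3.31 and 2.09 at 12 h and 1.998, 1.31, 1.88, 1.63 and 1.23 at 24 h. The first 2 groups covered the same range and the 24 h arrays lay below both. Col5a3 fell by 1.16 ± 0.24 on the log2 scale (SE, adjusted p = 0.00255) against undifferentiated cells, with -1.09, -1.10 and -0.87 by suffix, and by 1.22 ± 0.24 on the log2 scale (SE, adjusted p = 0.0441) against 12 h.

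Col5a1 and Col5a2, the other collagen V chains, had 24 h differences of -0.47 ± 0.29 (SE; adjusted p = 0.236) and -0.79 ± 0.32 (SE; adjusted p = 0.0720) against undifferentiated cells. Col5a2 read 3.63, 4.15, 3.92, 4.89 and 5.08 in undifferentiated cells, 5.62, 4.32, 4.26, 4.26 and 4.27 at 12 h and 3.85, 2.71, 3.53, 3.85 and 3.78 at 24 h, with 12 h replicate 1 far above the other 12 h arrays and 24 h replicate 2 far below the other 24 h arrays. Col5a2 was called lower at 24 h without 12 h replicate 1 (adjusted p = 0.0321) or undifferentiated replicate 1 (0.0370) and with code runs as a random block (0.0459). Col11a1 had 0.47 ± 0.24 (SE; adjusted p = 0.230) at 12 h and 0.47 ± 0.24 (SE; adjusted p = 0.146) at 24 h. Col1a1, Col1a2, Col2a1 and Col3a1, the main fibrillar collagens of connective tissue and cartilage, lay under the filter level. No Col1a1 array was above -0.28 and no Col3a1 array above -0.22.

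Of the remaining collagens, Col18a1 and Col26a1 were tested and both fell at 24 h. Collagen XVIII is a basement membrane proteoglycan whose C-terminal end yields endostatin. Col18a1 read -0.06, 0.87, 0.86, 2.68 and 2.59 in undifferentiated cells, 0.28, -0.16, 1.65, 1.50 and -0.30 at 12 h and -0.12, -0.25, -0.17, -0.20 and -0.42 at 24 h. Undifferentiated replicates 4 and 5 were far above the other 3, and replicate 1 lay just above the highest 24 h array. The 24 h arrays lay below all undifferentiated arrays. The fall at 24 h was 1.62 ± 0.48 on the log2 scale (SE, adjusted p = 0.0174), with -0.53, -1.98 and -2.90 by suffix, and the adjusted p was 0.0512 without undifferentiated replicate 4. Col26a1 fell by 0.75 ± 0.22 on the log2 scale (SE, adjusted p = 0.0140) at 24 h. With the suffix as a block it was also called lower at 12 h (-0.53, adjusted p = 0.00446).

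Between 12 h and 24 h, 0 matrix genes were higher and 1, Col5a3, was lower by limma at an adjusted p under 0.05, where 0.417% of all genes were called, 0.0632% higher and 0.354% lower. At an unadjusted p under 0.05 there were 21 of the 34, 4 higher (Col9a1, Col9a3, Col20a1 and Vcan) and 17 lower, beside 15% of all genes. The median difference was -0.54 for the matrix genes and -0.06 for all genes. The 24 h arrays lay below the 12 h arrays without overlap for 4 matrix genes (Col5a1, Col5a2, Col5a3 and Lamb1) and above for 0, where 2.21% and 0.708% of all genes were so placed. Leaving out any of 10 of the 15 arrays, all but undifferentiated replicates 1, 3 and 5 and 12 h replicates 1 and 5, ended the Col5a3 call (adjusted p up to 0.155). Without 12 h replicate 5, 8 matrix genes were lower (Col4a1, Col4a6, Col5a1, Col5a3, Fbln2, Lama1, Lama5 and Nid2) and 2 (Col9a1 and Col20a1) higher, where the calls over all genes rose from 0.417% to 4.58% (1.56% higher and 3.02% lower). With 12 h replicates 3 and 4 both left out, a setting chosen after seeing the data, 9 matrix genes had an unadjusted p under 0.05. Of these 1 was higher and 8 were lower, beside 6.68% of all genes.

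At 12 h replicates 3 and 4, the closest pair of arrays, lay above the other 3 for 19 of the 34 tested matrix genes and below them for 7, where 34.2% and 22.9% of all tested genes were so placed. The 19 were Lama1, Lama4, Lama5, Lamb1 and Lamc1 of the laminins, both nidogens, Hspg2, Fbln2, Fn1, Tnc, Islr and the collagens Col4a1, Col4a5, Col4a6, Col5a1, Col5a3, Col11a1 and Col18a1. Fn1 stood at 4.06 and 4.18 in the pair and at 1.56 to 2.32 in the other 3, and Tnc at 5.84 and 5.83 against 1.23 to 4.54. With both arrays left out, a setting chosen after seeing the data, limma called 7 matrix genes higher and 7 lower at 12 h, where the calls over all tested genes rose as well, from 7.86% to 24.3% (9.51% higher and 14.8% lower). The pair is all of suffix B at 12 h, and the other groups keep that suffix, so in this setting suffix and time are partly mixed. The 7 lower genes were Col18a1, Fbln2, Lama1, Lama5, Lamb1, Lamc1 and Tnc, all of them called lower at 24 h in the full set. The Fbln2 difference at 12 h was then -1.92 (adjusted p = 0.00311), that of Tnc -2.16 (adjusted p = 0.0360) and that of Lamb1 -0.95 (adjusted p = 0.0363). The 7 higher genes were the 4 of the full set with Agrn, Col9a3 and Lama2. In the same fit the 24 h calls were 8 matrix genes up and 13 down, beside 13.8% and 21.2% of all genes. Between the times 0 matrix genes and 0.0126% of all genes were called, with Col5a3 at -0.92 (adjusted p = 0.440).

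Chains whose proteins assemble together were compared array by array as deviations from the group means. Both genes were tested for 4 of the 10 pairs listed, and the 15 arrays share title suffixes and include the close pair at 12 h. Lamb1 and Lamc1 gave a Pearson r of 0.63 (permutation p = 0.0273, adjusted 0.109) and a Spearman rho of 0.72 (permutation p = 0.00857, adjusted 0.0343), two-sided with 100000 permutations within groups. The r was 0.86 without the 2 arrays farthest from the median of Lamb1 and 0.69 with the suffix removed. Nid1 and Lamc1 gave r = 0.52 and rho = 0.48 (permutation adjusted p = 0.28 and 0.27), and r was 0.35 without 2 arrays. Bcan and Ncan gave r = 0.38 and rho = 0.38 (permutation adjusted p = 0.28 and 0.27), and r was 0.43 without 2 arrays. Col5a1 and Col5a2 gave r = -0.06 and rho = -0.03 (permutation adjusted p = 0.928 and 0.935), and r was 0.15 without 2 arrays.

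The 30 genes under the filter level were Bgn, Dcn, Fbln5, Hapln1, Lama3, Lamb3, Lamc3 and 23 collagens: Col1a1, Col1a2, Col2a1, Col3a1, Col4a2, Col4a3, Col4a4, Col6a1, Col6a2, Col6a3, Col7a1, Col8a1, Col9a2, Col10a1, Col11a2, Col12a1, Col13a1, Col14a1, Col15a1, Col17a1, Col19a1, Col22a1 and Col25a1. With the filter dropped, limma called 4.57%, 22.5% and 0.218% of all 12393 genes at 12 h, at 24 h and between the times. Among the 30 it called Col11a2 and Col22a1 at 24 h, and both are named here after their values were seen. Col11a2, a fibrillar collagen chain of cartilage, had a difference of 1.15 ± 0.13 (SE; adjusted p = 8.58e-05) at 24 h and 0.89 (adjusted p = 0.0156) between the times, with 24 h arrays at 1.03, 1.10, 0.98, 0.91 and 0.64 and undifferentiated arrays at -0.15, -0.12, 0.08, -0.33 and -0.56. Col22a1 had 0.71 ± 0.12 (SE; adjusted p = 0.00104) at 24 h.

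Genes that make, bind and cut the matrix were read as lists beside the members. In the list for collagen processing, 15 of 19 genes on the array were tested. At 12 h 1 was higher (3.3% of all genes), at 24 h 1 was higher and 3 lower (12.7% and 19.4%), and between the times 1 was lower (0.354%). The medians were 0.19, -0.24 and -0.33 beside 0.00445, -0.06 and -0.06 for all genes. Pcolce2, an enhancer of procollagen cleavage, had differences of 1.13 ± 0.33 (SE; adjusted p = 0.0435) at 12 h and 2.47 ± 0.33 (SE; adjusted p = 0.000165) at 24 h. Lower at 24 h were its relative Pcolce with -0.91 ± 0.21 (SE; adjusted p = 0.00468), the collagen galactosyltransferase Colgalt1 with -1.06 ± 0.22 (SE; adjusted p = 0.00262) and Crtap, a partner of prolyl 3-hydroxylase, with -1.84 ± 0.33 (SE; adjusted p = 0.00105). Serpinh1, the collagen chaperone of the endoplasmic reticulum, was lower at 24 h than at 12 h with -0.81 ± 0.16 (SE; adjusted p = 0.0468). The 12 h call of Pcolce2 was lost without any of 10 single arrays (all but 12 h replicates 1, 3 and 4 and 24 h replicates 1 and 2, with adjusted p up to 0.116). That of Serpinh1 was lost without any of 11 (all but undifferentiated replicates 1 and 3 and 12 h replicates 2 and 5, with adjusted p up to 0.155). Under median centring and without the filter both calls were lost too (adjusted p = 0.0522 and 0.0564 for Pcolce2, 0.1865 and 0.0566 for Serpinh1). Quantile normalization also ended that of Pcolce2 (adjusted p = 0.0542).

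Of 24 tested genes for other matrix proteins, 1 was higher at 12 h (3.3% of all genes). At 24 h 3 were higher and 7 lower (12.7% and 19.4%), and 0 were called between the times (0.417%). The medians were 0.16, -0.25 and -0.23. Reelin (Reln), a large signalling glycoprotein of the brain, had 1.48 ± 0.27 (SE; adjusted p = 0.00725) at 12 h and 1.67 ± 0.27 (SE; adjusted p = 0.000608) at 24 h. The thrombospondins split at 24 h, with Thbs1 at 1.13 ± 0.34 (SE; adjusted p = 0.0174) and Thbs3 at -0.65 ± 0.19 (SE; adjusted p = 0.0150). Fibrillin 2 (Fbn2), a microfibril protein, had -1.99 ± 0.57 (SE; adjusted p = 0.0146) at 24 h. The Thbs3 call was lost under quantile normalization and median centring (adjusted p = 0.0767 and 0.0563). Igfbp7, named after its value was seen as the remaining gene that rose, had 0.47 ± 0.17 (SE; adjusted p = 0.0448), lost without any of 10 arrays (all but undifferentiated replicate 3, 12 h replicates 1 and 5 and 24 h replicates 2 and 5; adjusted p up to 0.119).

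Of 15 tested matrix receptors, 2 were higher at 12 h (3.3% of all genes), and at 24 h 1 was higher and 6 lower (12.7% and 19.4%). The medians were 0.16, -0.40 and -0.53 in the 3 comparisons. The laminin-binding integrin chains Itga7 and Itga6 rose at 12 h, with 1.04 ± 0.28 (SE; adjusted p = 0.0349) and 0.61 ± 0.17 (SE; adjusted p = 0.0350). Both calls were lost without undifferentiated replicate 1, 2, 4 or 5 or 12 h replicate 2 or 4, that of Itga7 also without 12 h replicate 3 and that of Itga6 without 12 h replicate 5 (adjusted p up to 0.0860 and 0.101). The Itga6 call was also lost when its probe sets were averaged (0.50, adjusted p = 0.239). Among the falls at 24 h, the integrin chains Itgav and Itgb5, which pair to bind RGD proteins, had -1.23 ± 0.20 (SE; adjusted p = 0.000572) and -1.53 ± 0.31 (SE; adjusted p = 0.00219). The syndecans Sdc3 and Sdc1, heparan sulfate proteoglycans of the cell surface, had -1.51 ± 0.30 (SE; adjusted p = 0.00193) and -1.20 ± 0.25 (SE; adjusted p = 0.00231). Itgav was also lower at 24 h than at 12 h, with -1.06 ± 0.20 (SE; adjusted p = 0.0377), a call lost under median centring (adjusted p = 0.0975) and without undifferentiated replicate 2, 12 h replicate 3 or 4 or any 24 h array (adjusted p up to 0.131). Cd47, the receptor that was higher at 24 h and is named after its value was seen, had 0.54 ± 0.16 (SE; adjusted p = 0.0159).

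Of 12 tested matrix proteases and inhibitors, 1 was higher at 12 h (3.3% of all genes). At 24 h 2 were higher and 1 lower (12.7% and 19.4%), and 1 was lower between the times (0.354%). The medians were 0.17, 0.18 and -0.14. The metalloproteinase inhibitors Timp2 and Timp4 moved in opposite directions. Timp2 had 1.33 ± 0.16 (SE; adjusted p = 0.000478) at 12 h and 1.64 ± 0.16 (SE; adjusted p = 1.63e-05) at 24 h. Timp4 had -2.23 ± 0.31 (SE; adjusted p = 0.000190) at 24 h and -1.79 ± 0.31 (SE; adjusted p = 0.0304) between the times, the latter lost without 12 h replicate 3 or 4 or 24 h replicate 1, 4 or 5 (adjusted p up to 0.107). Mmp16, a membrane-bound metalloproteinase, had 0.55 ± 0.17 (SE, adjusted p = 0.0216) at 24 h, lost without undifferentiated replicate 5 or 24 h replicate 3 (adjusted p up to 0.0590). The Mmp16 call was also lost when its probe sets were averaged (0.24, adjusted p = 0.429).

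**Figure D4:**
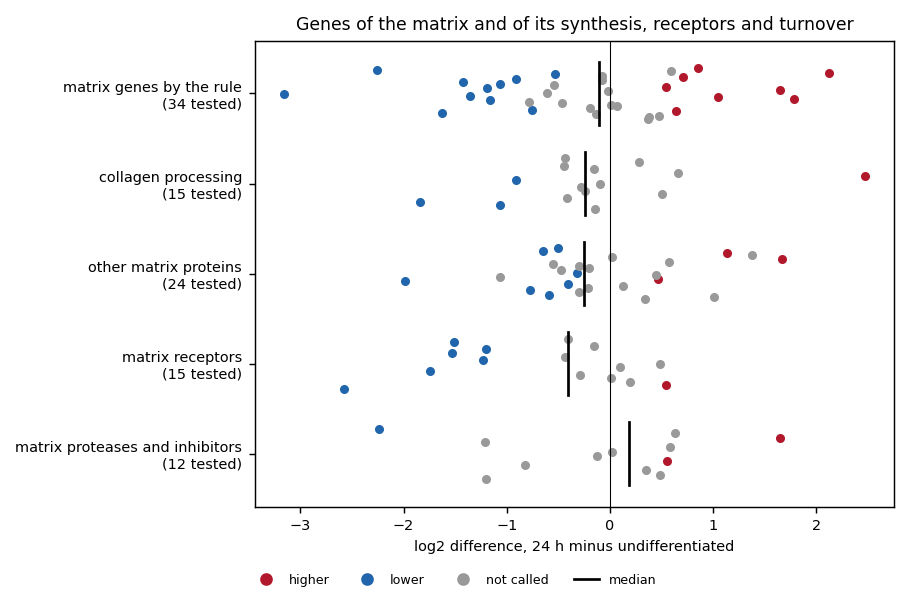
Log2 differences at 24 h against undifferentiated cells for the tested genes of the matrix set and of the lists for collagen processing, other matrix proteins, receptors, and proteases with their inhibitors, 1 point per gene, red for genes called higher and blue for genes called lower at an adjusted p under 0.05, grey for the others, and a line at each median. The medians lie between -0.40 for receptors and 0.18 for proteases and inhibitors.

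Markers of cell types that could carry matrix genes were read the same way. Among all tested genes 12.7% were higher and 19.4% lower at 24 h. Of 10 astrocyte markers, all tested, 7 were higher and 1 (Slc1a2) lower at 24 h, and the summed signal of the list was 717 to 1380 in undifferentiated cells, 1025 to 2884 at 12 h and 1753 to 4085 at 24 h. Of 10 tested oligodendrocyte lineage markers 6 were higher at 24 h, with sums of 947 to 1565, 946 to 2883 and 1311 to 3768. Of 3 ependymal markers on the array 2 (Foxj1 and Rsph1) were tested and both were higher at 24 h, with sums of 6.29 to 8.32, 8.32 to 16.5 and 10.5 to 22.7. The Rsph1 means were 0.43 in undifferentiated cells, 0.46 at 12 h and 0.78 at 24 h, with no array above 0.89. Only the 24 h mean lay above the filter level of 0.51, so Rsph1 was tested through the group where it was high. Of 14 neural stem cell markers 3 were higher (Sox2, Msi1 and Prom1) and 3 lower (Nes, Egfr and Hes1) at 24 h. The astrocyte, oligodendrocyte and ependymal lists thus moved with the groups, and their part in the results was not tested.

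Of 12 pericyte and fibroblast markers 4 passed the filter, and their list summed to 19.8 to 23.7 in undifferentiated cells, 18.7 to 25.9 at 12 h and 15.9 to 22.0 at 24 h. Pdgfrb, a growth factor receptor of pericytes, was higher at 24 h with 1.97 ± 0.23 (SE, adjusted p = 7.96e-05). The Pdgfrb means were -0.24 in undifferentiated cells, 0.43 at 12 h and 1.72 at 24 h. Only the 24 h mean lay above the filter level of 0.51, so Pdgfrb was tested through the group where it was high. Foxc1 and Thy1 were lower with -0.84 ± 0.19 (SE, adjusted p = 0.00444) and -1.23 ± 0.35 (SE, adjusted p = 0.0143), and Prrx1 did not pass the test. The Foxc1 mean at 24 h, 0.01, lay under the filter level. Lum, Postn, Rgs5, Kcnj8, Abcc9, Anpep, Twist1 and Tbx18 lay under the filter level, as did Col1a1, Col1a2, Col3a1 and Dcn. The 10 endothelial markers summed to 7.45 to 8.37 and the 10 microglial markers to 8.09 to 8.84 over all arrays, with Pecam1, Cdh5, Ptprc and Aif1 under the filter level in every array.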

How the data were processed

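Values came from the deposited table of 22690 probe sets on 15 arrays, which the authors made with MAS5 per the submitters' processing notes (not given in the sources used here: its version and scaling). The deposited values carry no stated log base and were read as log10, since bacterial and phage spike-ins of known concentration gave a slope of 0.982 ± 0.0468 (SD, 15 arrays) against log10 concentration. Array medians ran from 0.287 to 0.453 on that scale, so the offset between arrays is unknown. Multiplication by 3.32 gave log2 values, with no further normalization and no pseudocount.

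Of 22626 probe sets other than controls, 20380 had a single symbol in the platform annotation, 691 had several and 1555 had none here. Only the first kind was used. Of 12393 genes, 12369 matched RefSeq (GRCm38.p6) by Entrez number. All 15 arrays were fitted with limma 3.58.1 in R 4.3.3 (group means, trended variances), and adjustment was over the 7909 genes above the 40th percentile. Errors beside a difference are standard errors of that fit, and the few arrays per group limit the precision. In a test on simulated data for 24 h against undifferentiated cells with 7909 genes, recovery was 46.3% for changes of 1.5-fold, 79.1% for 2-fold and 97.0% for 4-fold, and 3.90% of the calls were false. The simulation changed 67, 67 and 66 genes by these sizes and drew the noise independently for each gene and array. It held no suffix, code run, close pair or actin ratio that moved with the groups, so its false share does not carry over to the real calls.

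The members and lists were chosen with earlier results of these data known. Named genes are all members, with array values for those called at 12 h and for the 12 largest differences called at 24 h, and the 4 called genes with the smallest p of each companion list and comparison; others were chosen after their values were seen. Alternatives changed the filter, normalization, probe set choice, variance model, blocks, labels, samples and single arrays. Leaving out both 12 h replicates 3 and 4 was added after seeing the data.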

Additional observations from a re-analysis of the deposited data

Results flagged for a closer look

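Both results flagged here are single arrays that stood apart from the other 4 of their group, and both concern Col5a2, a chain of collagen V. At 12 h, replicate 1 read 5.62 on the log2 scale and the other 4 arrays read 4.26 to 4.32. At 24 h, replicate 2 read 2.71 and the other 4 read 3.53 to 3.85. The gap took 0.958 and 0.717 of the group's whole range, where the critical value of Dixon's test for 5 samples is 0.71. Chance alone flags about 1 in 20 groups, and 102 groups of arrays (34 genes in 3 groups) were looked at, of which 2 were flagged. Col5a2 was called in none of the 3 comparisons by limma with all arrays and no block, and without 12 h replicate 1 it was called lower at 24 h (adjusted p = 0.0321).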

How the results depend on the processing

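In the full set limma called 4 matrix genes higher and 1 lower at 12 h, 8 and 11 at 24 h, and 0 and 1 between the times. Counts are given in that order of direction. With the filter at the 60th percentile, which left 17 of the 34 genes, there were 2 and 0 at 12 h and 4 and 4 at 24 h (7.78% and 32.7% of all genes called). Without a filter 1 gene was higher between the times (0.218% of all genes called). Quantile normalization gave 2 lower between the times (0.62%), and median centring 2 lower at 12 h (9.43%). Averaging the probe sets of a gene left 0 lower between the times (0.236%). The suffix block gave 3 lower at 12 h and 6 lower between the times, the block of code runs 3 and 0, and the random block of code runs 3 and 6. Calls over all genes moved as well, to 18.7%, 14.8% and 18.4% at 12 h and to 2.55%, 0.0253% and 2.97% between the times. At 24 h they were 41.8%, 38.9% and 41.8%. Runs of consecutive title codes cross the groups, and the block of code runs is the fit that pairs arrays by them; with 5 higher at 12 h and 8 and 12 at 24 h it moved no other count by over 1.5 times. The replicate numbers, given in accession order, were not used to pair arrays. In the undifferentiated and 12 h groups arrays of the same number share a run, and at 24 h this holds for replicate 5 only.

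Groups by the file codes gave 0 throughout, for the matrix genes and for all genes. There, differences changed sign for Islr (-0.60 at 12 h and -0.28 at 24 h), Ogn (-0.078) and Sparc (-0.29) at 12 h, and for Col18a1 (0.20), Col9a3 (-0.14), Lama2 (-0.13), Lamb1 (0.048), Tnc (0.32) and Vcan (-0.084) at 24 h. The same held for Itga6 (-0.079), Itga7 (-0.25) and Timp2 (-0.24) at 12 h, and for Cd47 (-0.046), Foxc1 (0.068), Igfbp7 (-0.28) and Mmp16 (-0.24) at 24 h. Without suffix C, with 4 arrays fewer, there were 2 and 0 at 12 h and 4 and 7 at 24 h, and 0.885% and 14.3% of all genes were called. The actin ratio as a covariate left 2 and 0 at 12 h, 0 and 0 at 24 h and 0 lower between the times, and Col26a1 changed sign (0.17 at 24 h). Averaging 12 h replicates 3 and 4 gave 2 lower at 12 h and 0 lower between the times, where 11.2% and 0.0126% of all genes were called. Leaving out both, and with them suffix B at 12 h, gave 7 and 7 at 12 h and 0 lower between the times (24.3% and 0.0126% of all genes). Leaving out each array in turn gave 1 to 2 lower at 12 h, and 0 to 2 higher and 0 to 8 lower between the times. Both highest counts between the times were reached without 12 h replicate 5. At 24 h these fits gave 7 to 9 higher and 8 to 12 lower, with 8 lower without undifferentiated replicate 4 or 24 h replicate 5. The share of all genes called ran from 2.2% to 12.7% at 12 h and from 25.4% to 35.5% at 24 h. Between the times it ran from 0.0126% to 4.58%. Apart from what an alternative's own construction shows, the cause of these changes was not tested.

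Probe sets near the filter level limit the low side of Ogn, Col20a1, Col18a1 and Lama1, and of the markers Pdgfrb, Foxc1 and Rsph1.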
